A study of Mus musculus with 2 samples.

Results

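The 49 genes described here encode enzymes, readers and scaffolds of acetylation, many of which act on chromatin. By type, they are 13 acetyltransferases, 11 zinc-dependent deacetylases, 7 sirtuins, 6 bromodomain proteins, 5 co-repressor scaffolds, 2 TIP60 complex scaffolds and 5 ING readers. Some of the deacetylases work mainly in mitochondria or the cytoplasm. They were matched by symbol to a list of names, and all 49 were found among the 28592 genes of the table. The matching itself uses no measured value, but the list was chosen with earlier results of these data known. Both samples are E14TG2a mouse embryonic stem (ES) cells, an established male line deficient in Hprt, kept in 2i/LIF medium, which inhibits MEK and GSK3 and supplies leukaemia inhibitory factor. The series has 1 group of 2 replicates and was planned as a catalogue of long non-coding RNA in the ground state, the naive form of pluripotency, so the protein-coding genes here come from data gathered for another purpose. RNA was depleted of ribosomal RNA, sequenced with strand information and summarised by the authors as FPKM, the number of fragments per kilobase of a transcript after scaling for library size. No other genotype, treatment or time is analysed here, so levels are set side by side between genes within these cells, and no test between conditions exists.

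Acetyl groups are placed on lysines by acetyltransferases (writers), bound by bromodomain proteins (readers) and removed by deacetylases (erasers). Acetylation of histone tails marks active enhancers and promoters, and most of the enzymes act as the catalytic subunit of a large complex whose scaffold decides where on chromatin they work. Deacetylases of the zinc-dependent type are sorted into classes I, IIa, IIb and IV by sequence, while the sirtuins use NAD as a cosubstrate and tie deacetylation to metabolism. Naive ES cells are known for open, readily transcribed chromatin, and several of these complexes are known to be needed for self-renewal or differentiation.

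Summed FPKM came to 946498 for replicate 1 and 928174 for replicate 2, and depth in reads is unknown. Each of 8 naive ES cell markers reached an FPKM of 1 in both replicates, between 12.5 ± 1.57 for Klf4 and 7048 ± 107 for Dppa5a (mean ± SD over the replicates, n = 2, here and below). Of 8 fibroblast markers Vim (270.0 ± 12.6) and Sparc (53.3 ± 3.68) passed that limit, while the collagen genes Col1a2 (0.0101 and 0.917) and Col3a1 (0.0481 and 0.809) and the lowest, Thy1 (0.170 and 0.272) and Postn (listed at 0, and 0.0807), did not. All 8 were higher in replicate 2, and their summed level was 312 FPKM in replicate 1 and 338 in replicate 2. Vim and Sparc made up nearly all of that sum. The collagen genes, under 1 FPKM in each replicate, were higher in replicate 2 by 16.8-fold (Col3a1), 40.6-fold (Col1a1) and 90.8-fold (Col1a2). Of 6 primed epiblast markers 4 passed, Lefty2 (192.5), Dnmt3b (21.6), Fst (5.87) and Otx2 (3.74), and Pou3f1 and Fgf5 were under 0.1. Of 16 markers of germ layers and trophectoderm 5 passed, led by Tubb3 (31.2), Krt8 (14.9), T (12.4) and Nes (9.24). None of 5 muscle and neuron markers did, with Syn1 highest at 0.233 and Myod1 listed at 0 in both. The part of other cells in the levels below was not tested. It is not stated that the 2 libraries came from different cultures, and their spread may be technical.

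The acetylation machinery was expressed nearly as a whole. Of the 49 genes 47 were detected, meaning FPKM values of 1 or more in each replicate, and the exceptions were the class IIa deacetylase gene Hdac9 and the testis bromodomain gene Brdt. Detection was met by 39.4% of all genes in the table and by 50.6% of those typed as protein-coding by RefSeq. A level of 10 FPKM in each replicate was reached by 30 of the 49, against 21.8% of all genes and 28.9% of coding genes. The median of the 49 was 13.8 FPKM, or 14.3 in replicate 1 and 12.6 in replicate 2. Over all genes the median was 0.233, and over the 11253 detected genes it was 12.7, so the machinery lay near the middle of the expressed genes, with 25 of its 49 members above that value.

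Detected members spanned a 255-fold range. Hat1 was at the top with 331 and 348 FPKM in replicates 1 and 2, and the nuclear receptor coactivator gene Ncoa1 had the lowest mean, with 1.32 and 1.34, overlapping Sirt5 (1.30 and 1.66). Hat1, the co-repressor scaffold gene Sin3b and Hdac2 were the members above 100 in both replicates, at percentiles 97.1, 94.5 and 94.02 of the detected genes. Ordered by mean, 25 of the 48 neighbouring members had replicates that did not overlap, and 23 overlapped. Where 1 gene ended and the next began was clear for the leading 4, Hat1, Sin3b, Hdac2 and Kat6b. Brd8 and Hdac1 overlapped, as did Hdac3 with Kat2b, Kat2b with Sin3a, and Sin3a with Rcor2, so no order can be read among those neighbours, nor between Sirt5 and Ncoa1.

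**Figure D1:**
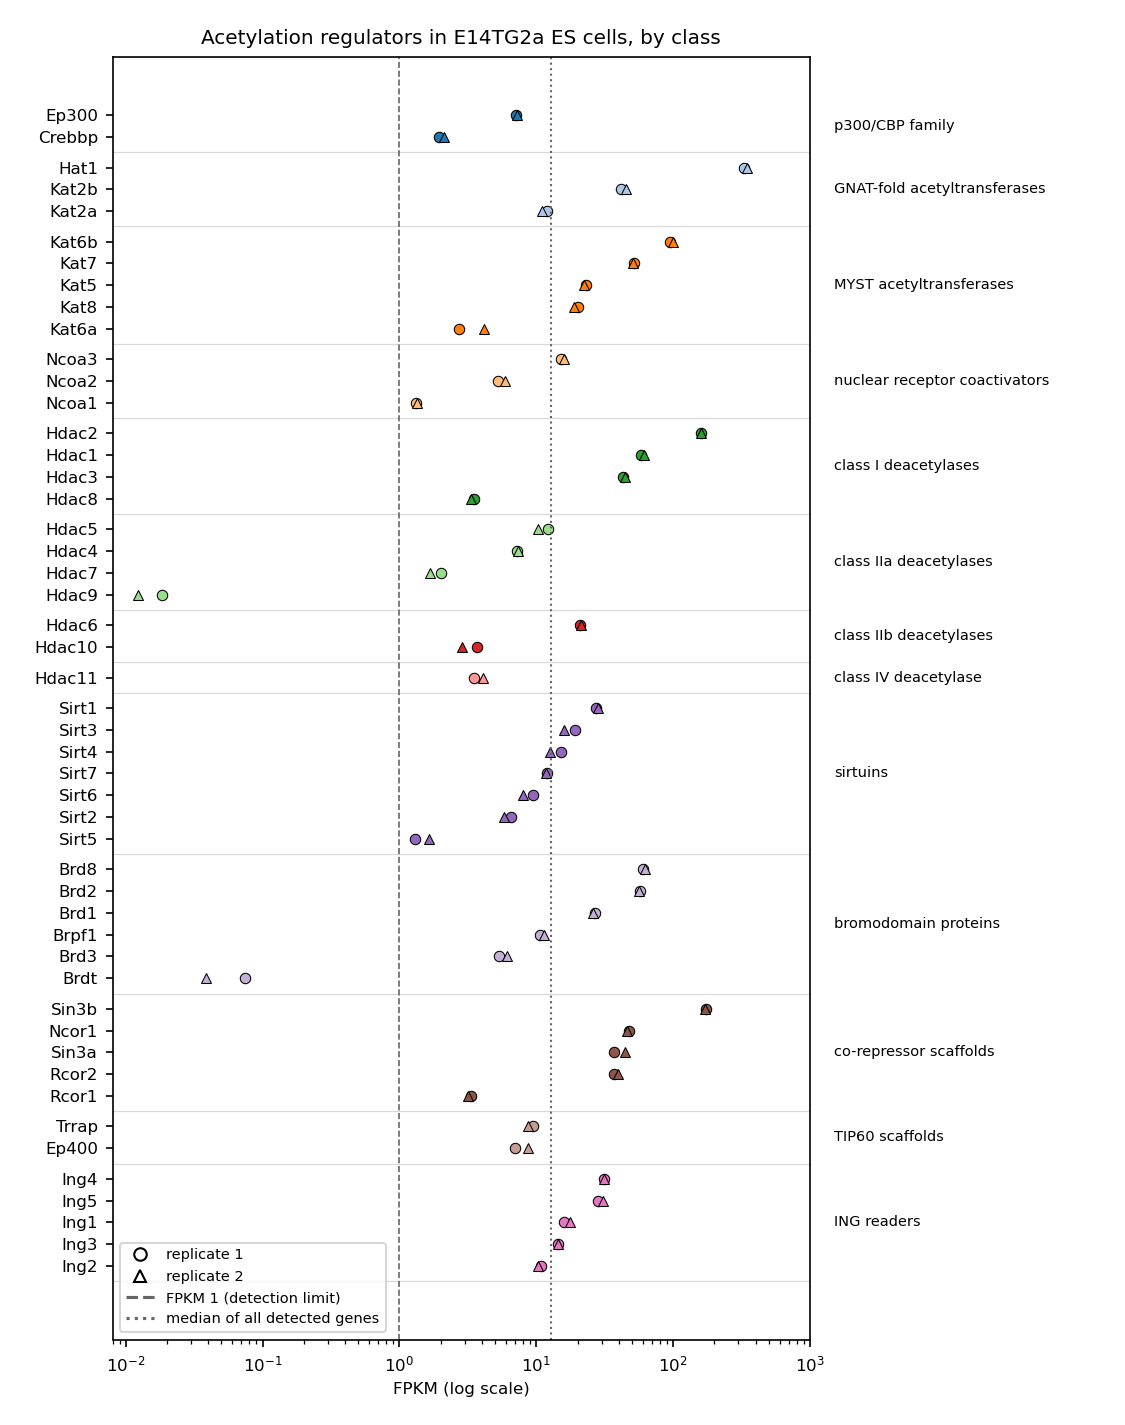
Level of each of the 49 genes by class, on a logarithmic FPKM axis, with circles for replicate 1 and triangles for replicate 2; the dashed line is the detection limit of 1 and the dotted line the median of detected genes (12.7). Hdac9 and Brdt lie far left of the limit, and Hat1, Sin3b, Hdac2 and Kat6b form the right edge.

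The replicates gave nearly the same values for these genes. The median absolute log2 ratio between replicates was 0.09 over the 49 genes, and 0.15 over all 17972 genes above 0 in both. The SD of that ratio was 0.23 for the members and 0.70 for all such genes, many of which are low. Among genes averaging 1 FPKM or more, the median was 0.08 for 47 members and 0.09 for all 11483 genes, with SDs of 0.17 and 0.24. Past 1.5-fold were 3 members, Kat6a (2.74 and 4.15), Brdt (0.0742 and 0.0383) and Hdac9 (0.0185 and 0.0123), against 18.6% of all genes above 0 in both. Of the 47 members averaging 1 FPKM or more it was Kat6a alone, against 2.61% of genes at that level. Values of Kat6a, Brdt and Hdac9 thus had the widest relative spread of the 49.

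Promoters of the members were mostly rich in CpG, the dinucleotide at which DNA is methylated in mammals and whose density sets apart the promoters of widely used genes. RefSeq windows on GRCm38.p6, from 250 bases before to 50 after a transcript start, were at hand for 42 members in 61 windows. No window was at hand for Kat6a, Ncoa2, Ncoa3, Hdac1, Hdac3, Hdac10 and Brd8. The 250 bases before the outermost start are shown for Hat1 and Hdac9, the highest and the lowest member, and for Rcor2 and Rcor1, a pair of paralogs far apart in level. They lie at chr2:71389010-71389259 (plus strand), chr12:34917096-34917345 (minus), chr19:7267144-7267393 (plus) and chr12:111039117-111039366 (plus). Each is written 5′ to 3′ on the gene's strand with CpG in capitals.
Hat1: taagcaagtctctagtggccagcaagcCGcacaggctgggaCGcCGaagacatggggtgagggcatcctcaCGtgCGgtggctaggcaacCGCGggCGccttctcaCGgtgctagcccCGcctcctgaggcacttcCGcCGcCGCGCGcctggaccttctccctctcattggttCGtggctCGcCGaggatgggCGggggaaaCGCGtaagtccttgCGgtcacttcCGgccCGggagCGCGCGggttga
Hdac9: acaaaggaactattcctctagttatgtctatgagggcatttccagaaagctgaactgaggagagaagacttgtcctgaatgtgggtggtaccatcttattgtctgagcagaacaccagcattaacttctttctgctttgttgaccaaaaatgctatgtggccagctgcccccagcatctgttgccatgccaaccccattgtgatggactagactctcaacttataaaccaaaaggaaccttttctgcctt
Rcor2: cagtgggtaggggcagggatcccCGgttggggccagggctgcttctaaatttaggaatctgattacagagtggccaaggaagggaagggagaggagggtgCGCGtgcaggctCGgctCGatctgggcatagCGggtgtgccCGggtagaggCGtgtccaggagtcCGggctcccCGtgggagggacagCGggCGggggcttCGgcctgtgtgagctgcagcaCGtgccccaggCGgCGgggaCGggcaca
Rcor1: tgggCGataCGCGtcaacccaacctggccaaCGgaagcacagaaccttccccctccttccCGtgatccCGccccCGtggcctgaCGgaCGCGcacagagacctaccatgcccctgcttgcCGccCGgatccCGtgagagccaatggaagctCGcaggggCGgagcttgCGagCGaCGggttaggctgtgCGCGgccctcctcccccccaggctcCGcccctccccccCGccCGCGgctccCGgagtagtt
The Hat1 stretch held 27 CpG, that of Rcor2 17 and that of Rcor1 25, whereas the Hdac9 stretch held 0, with a GC content of 44.4% against 67.6% for Hat1.

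Over full windows of 300 bases, the median was 24 CpG in member windows, 21 in windows of detected coding genes and 5 in windows of coding genes that were not detected. At least 10 CpG were found in 53 of 61 member windows (86.9%), against 81.7% of windows of detected coding genes and 43.5% of all 32851 RefSeq windows. Within the family, Spearman's rho of level with CpG count was -0.02 over 42 genes, given as a description, since these genes share the same pair of libraries. Crebbp and Ncoa1, both under 3 FPKM, had 49 CpG each, the highest counts, while Kat2b at 43.4 FPKM averaged 8.5 over its windows. Brdt, not detected, had 23 CpG, close to the member median. The letters of a GC box (GGGCGG, on either strand) were in 72.1% of member windows, in 64.2% of windows of detected coding genes and in 35.7% of all windows. A TATA box (TATAAA, either strand) was in 8.20% of member windows, those of Hdac8, Hdac9, Ing1 and Sin3b, against 6.41% of windows of detected coding genes and 13.6% of all windows. The letters of an ETS site (CCGGAAG, either strand) stood in 18.0% of member windows, 19.5% of windows of detected coding genes and 8.86% of all windows. An octamer of POU factors (ATTTGCAT, either strand) occurred in 1 of the 61, a window of Hdac9, and in 1.74% of all windows. Matches of letters are descriptions and not binding sites.

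**Figure D2:**
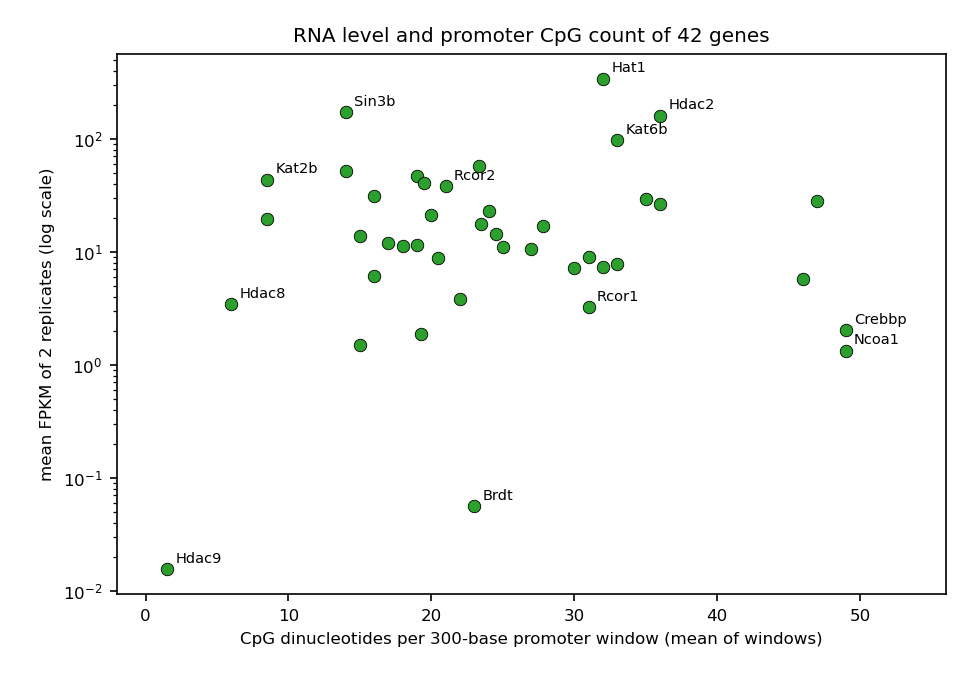
Mean FPKM of the 2 replicates (logarithmic axis) against the mean number of CpG per 300-base promoter window for 42 genes, 1 point a gene. Hdac9 stands alone at the lower left, and the other points spread over the full width at most levels (rho of -0.02 over all 42).

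The acetyltransferases were all detected, 13 of 13, with a median of 15.5 FPKM (15.1 and 15.8 in replicates 1 and 2). Hat1 (chromosome 2, 71389260 to 71441622, RefSeq span on GRCm38.p6, as for all spans below), the enzyme that acetylates newly made histone H4 before it is built into chromatin, averaged 339.6 ± 11.95 FPKM. It made up 54.4% and 55.1% of the summed FPKM of the 13 genes in replicates 1 and 2. The MYST family, named after its founding members, gave 31.3% ± 0.552 of that sum, Kat2a and Kat2b together 8.84% ± 0.00503, the nuclear receptor coactivators 3.61% ± 0.0664 and the p300/CBP pair 1.48% ± 0.0200. FPKM is scaled per length, so such shares compare RNA and say nothing of the amount or activity of protein.

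Ep300 and Crebbp encode the large acetyltransferases that mark active enhancers, and their RNA was modest. Ep300 was at 7.17 and 7.19 FPKM in replicates 1 and 2, and Crebbp at 1.96 and 2.10. Both lay below the median of detected genes, and Ep300 stood 3.66-fold and 3.42-fold above Crebbp in the replicates. Folds here and below are ratios of FPKM without a pseudocount.

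Kat2a and Kat2b (known as GCN5 and PCAF) are alternative catalytic subunits of the SAGA and ATAC coactivator complexes. Kat2a had 11.999 and 11.002 FPKM, and Kat2b 41.8 and 44.9. The replicates of the pair did not overlap, with a difference of -1.83 ± 0.15 in log2(FPKM + 1), Kat2a minus Kat2b. The higher RNA was thus that of Kat2b.

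Among MYST enzymes the order was Kat6b, Kat7, Kat5, Kat8 and Kat6a. Kat6b (chromosome 14, 21499216 to 21672478), also called MORF or Querkopf, had 95.4 and 99.1 FPKM. Its close relative Kat6a (MOZ) had 2.74 and 4.15, which put Kat6b 34.8-fold and 23.9-fold above it. Kat6b and Kat6a are the catalytic subunits of the same kind of complex, built on a BRPF protein. Kat7 (HBO1), which acts with JADE or BRPF scaffolds and at replication origins, stood at 51.6 and 51.2. Kat5 (TIP60), the catalytic subunit of the NuA4-type complex, stood at 23.1 and 22.2. Kat8 (MOF), which acetylates histone H4 in the MSL and NSL complexes, stood at 20.3 and 18.8. Kat5 and Kat8 did not overlap in their replicates.

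The nuclear receptor coactivators, also called the p160 family, bind hormone receptors and bring in p300/CBP. Ncoa3 had 15.1 and 15.8 FPKM, Ncoa2 5.25 and 5.90, and Ncoa1 1.32 and 1.34. No replicates overlapped between any of the 3 genes, and Ncoa3 exceeded Ncoa1 by 11.4-fold and 11.8-fold.

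**Figure D3:**
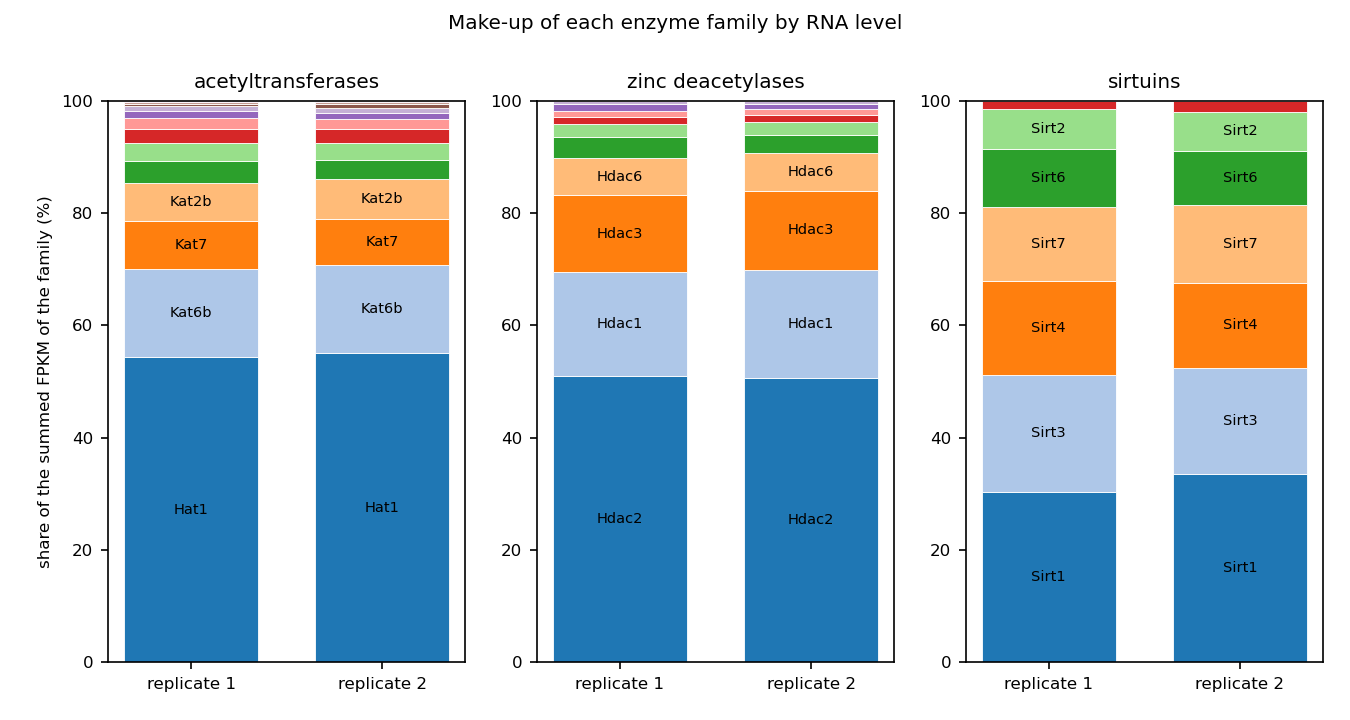
Share of each gene in the summed FPKM of the acetyltransferases, the zinc-dependent deacetylases and the sirtuins (percent), 1 bar a replicate; genes under about 4% carry no name. Hat1 (54.4% and 55.1%) and Hdac2 (51.0% and 50.6%) fill the larger part of their bars, while the sirtuins are more evenly divided.

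Zinc-dependent deacetylases were detected for 10 of 11 genes, with a median of 7.30 FPKM, and class I led them. Class I made up 84.3% and 85.0% of the summed FPKM of the 11 genes in replicates 1 and 2 (84.6% ± 0.517). Hdac2 (chromosome 10, 36974297 to 37001889) alone accounted for 50.8% ± 0.278, and Hdac1 and Hdac2 together for 69.7% ± 0.318. Class IIb gave 7.68% ± 0.148, class IIa 6.48% ± 0.483 and class IV 1.20% ± 0.114. On summed log2(FPKM + 1), which weighs low genes more, the class I share was 55.1%.

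Hdac1 and Hdac2 encode the interchangeable catalytic core of the SIN3, NuRD and CoREST co-repressor complexes. Hdac2 had 159.7 and 159.9 FPKM, and Hdac1 58.0 and 61.2, a ratio of 2.75 and 2.61 in favour of Hdac2. RefSeq lists a pseudogene of Hdac1 on chromosome 17, carried in the table as Gm10093 at 7.38 and 7.40 FPKM. Reads of such a copy and of Hdac1 are hard to tell apart, so the level of Hdac1 is uncertain. RefSeq also lists pseudogenes of Kat2b and Kat6b, for which no level matched by name was at hand. The same limit thus applies to the levels of Kat2b and Kat6b given above. Hdac3, the deacetylase of the NCoR complex, stood at 42.9 and 44.3. Hdac8, which deacetylates the cohesin subunit Smc3, stood at 3.49 and 3.33, below Hdac3 by 12.3-fold and 13.3-fold.

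Class IIa enzymes are signal-controlled co-repressors known from muscle, heart and bone, with little catalytic activity of their own. Hdac5 had 12.1 and 10.3 FPKM, Hdac4 7.22 and 7.38, and Hdac7 2.02 and 1.68. Hdac9 (chromosome 12, 34047580 to 34917095) was at 0.0185 and 0.0123, under the detection limit in both replicates. Hdac5 exceeded Hdac4 by less than 2-fold, 1.68-fold in replicate 1 and 1.40-fold in replicate 2. In class IIb, Hdac6, a mainly cytoplasmic tubulin deacetylase, stood at 20.7 and 21.1, and Hdac10, a polyamine deacetylase, at 3.67 and 2.86. Hdac11, the sole class IV enzyme, stood at 3.51 and 4.04. Hdac11, Kat6a, Hdac8, Hdac10 and Rcor1 lay in an unbroken run in which each overlapped its neighbour.

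All 7 sirtuins were detected, from 1.30 to 28.1 FPKM over the replicates. Sirt1, the best known nuclear sirtuin, led with 27.4 and 28.1. Sirt3, the main mitochondrial deacetylase, followed with 19.0 and 15.9, and Sirt4, also mitochondrial, with 15.1 and 12.6. Next came Sirt7, which works in the nucleolus, with 11.9 and 11.7, and the chromatin enzyme Sirt6 with 9.38 and 8.06. Sirt2, mainly cytoplasmic, had 6.49 and 5.78, and Sirt5, a mitochondrial desuccinylase, had 1.30 and 1.66. The nuclear sirtuins Sirt1, Sirt6 and Sirt7 made up 53.8% and 57.2% of the summed sirtuin FPKM, and the mitochondrial Sirt3, Sirt4 and Sirt5 39.0% and 35.9%. Sirtuins together held 21.7% ± 1.04 of the summed FPKM of all deacetylase genes.

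Sirt2, Sirt3, Sirt4, Sirt6 and Sirt7 were lower in replicate 2 than in replicate 1, and Sirt1 and Sirt5 were higher, with every ratio within 1.5-fold. The median log2 ratio of replicate 2 over replicate 1 was 0.01 over the 49 genes and 0.00 over all genes above 0 in both. Of the family as a whole, 27 of 49 members were higher in replicate 2, beside 8896 of all 17972 genes above 0 in both. Among those averaging 1 FPKM or more it was 27 of 47 members and 5586 of 11483 genes. Whether these shares differ was not tested.

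Bromodomain proteins bind acetylated lysine, and 5 of the 6 listed here were detected. Brd2, a BET family reader, had 57.2 and 56.7 FPKM, while Brd3, of the same family, had 5.31 and 6.06, so Brd2 was 10.8-fold and 9.35-fold higher. Brdt (chromosome 5, 107331116 to 107387061), the BET member known from the male germ line, was at 0.0742 and 0.0383. Brd8, a subunit of the TIP60 complex, had 60.7 and 62.0. Brd2 and Brd8 together gave 73.2% ± 0.0419 of the summed FPKM of the 6 genes. That sum leaves out the 24 other bromodomain genes described below, of which Atad2 (66.8) was highest. Brd1 and Brpf1 are alternative scaffolds of MYST complexes, Brd1 mainly with Kat7 and Brpf1 mainly with Kat6a and Kat6b. Brd1 had 27.03 and 26.1, and Brpf1 10.7 and 11.4. Brd1 was thus 2.53-fold and 2.29-fold above Brpf1.

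Co-repressor scaffolds formed 1 of the higher groups, with a median of 40.7 FPKM (36.9 and 44.4 in replicates 1 and 2). Sin3b (chromosome 8, 72723270 to 72758203), a scaffold of the SIN3 histone deacetylase complex, had 174 and 171. Its paralog Sin3a had 36.9 and 44.4, which left Sin3b 4.73-fold and 3.84-fold higher. Ncor1, the platform for Hdac3, had 47.9 and 46.0. Rcor2, a CoREST scaffold that joins the demethylase Kdm1a to Hdac1 and Hdac2, had 36.9 and 39.4, and its paralog Rcor1 had 3.31 and 3.17. Rcor2 was therefore 11.2-fold and 12.4-fold above Rcor1. The stretches before their starts shown above hold 17 CpG for Rcor2 and 25 for Rcor1, and a link of CpG to this difference was not tested.

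Ep400, the ATPase of the TIP60 complex, had 6.94 and 8.69 FPKM, and Trrap, a scaffold that SAGA and TIP60 share, had 9.42 and 8.65. They stood at percentiles 37.5 for Ep400 and 40.8 for Trrap of detected genes. ING proteins read trimethylated lysine on histone H3 and guide acetylation and deacetylation complexes, and their levels were the most even of any class with more than 2 members. All 5 were detected, between 10.5 ± 0.267 for Ing2 and 31.2 ± 0.261 for Ing4, a 2.96-fold range. Ing4 had 31.0 and 31.4 FPKM and Ing5, which like it works with Kat7, had 28.1 and 30.6, a difference of 0.09 ± 0.07 in log2(FPKM + 1). Ing1 had 15.9 and 17.7 FPKM and Ing2 had 10.7 and 10.4, both subunits of the SIN3 deacetylase complex. Ing3, of the TIP60 complex, had 14.3 and 14.4.

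In all, 23 pairs of related genes were set side by side, and 19 differed by over 2-fold on the log2(FPKM + 1) scale. The remaining 4 were Hdac5 and Hdac4, Ing1 and Ing2, Ing4 and Ing5, and Sirt6 and Sirt7. In no pair did the replicates overlap. Neither share was computed for other pairs of genes, so these counts are no trait of related genes. Lack of overlap can rest on a narrow gap, as for Ing4 (31.0 and 31.4 FPKM) and Ing5 (28.1 and 30.6). Their difference in log2(FPKM + 1) was 0.14 in replicate 1 and 0.04 in replicate 2, with a mean of 0.09. The order of Ing4 and Ing5 is thus not firm. With 2 replicates a gene, an exact permutation test cannot go below p = 0.33, so no p is given. The pairs share genes (Ncoa1, Ncoa2, Ncoa3, Hdac4, Hdac5, Hdac7 and Brd2 each enter more than once) and are not independent.

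**Figure D4:**
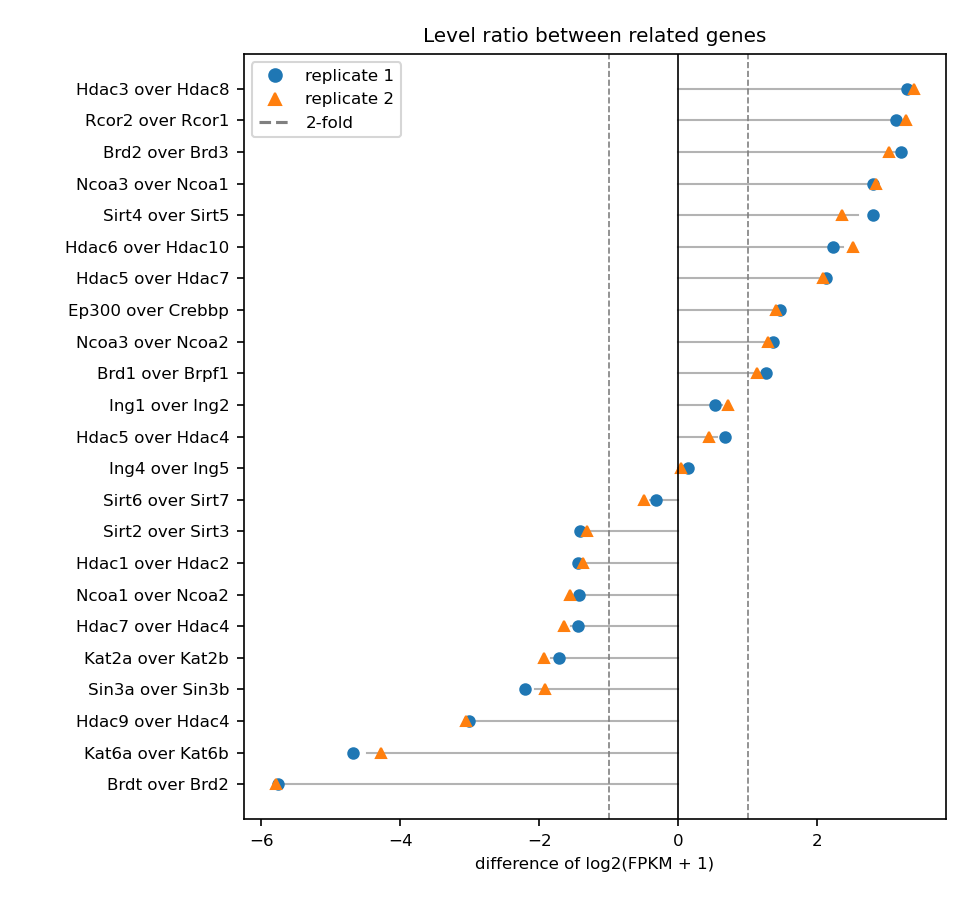
Difference of log2(FPKM + 1) within 23 pairs of related genes, the first-named gene minus the second, with circles for replicate 1, triangles for replicate 2 and dashed lines at 2-fold. The pairs run from Brdt against Brd2 (-5.78) to Hdac3 against Hdac8 (3.34), and the replicates of a pair lie close together.

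Partner genes that build the same complexes, or supply acetyl-CoA and NAD, were expressed too. Of 140 such genes in 12 lists 133 were detected, with a median of 19.5 FPKM. Detection was met by 39.4% of all genes and 50.6% of coding genes, and the median of detected genes was 12.7. The counts and medians of single lists below stand beside the same values. List medians were under 12.7 for CoREST partners (10.2), NCoR and MiDAC partners (9.98) and YEATS domain readers (5.59). For the other lists they ran from 14.9 (other bromodomain genes) to 38.0 (acetyl-CoA and NAD supply). Among the 7 partner genes that were not detected were Kmt2a, Smarca2, Atxn7, Gse1, Trerf1 and Nmnat3. Whether partners and members differ in level was not tested.

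Partners of the deacetylases were led by Sinhcaf at 247 ± 1.84 FPKM, Rbbp7 at 202 ± 3.62, Sap18 at 173 ± 12.8 and Sap30 at 131 ± 3.02, all subunits of SIN3 complexes. All 15 listed SIN3 partners were detected, with a median of 31.3 and with Phf12 (4.74) and Sap130 (2.81) lowest. All 12 NuRD partners were detected, with Rbbp7, Rbbp4 (93.3), Mta2 (68.4) and the remodeller Chd4 (52.1) highest and Chd3 (4.51) and Gatad2b (3.36) lowest. Of 8 CoREST partners 7 were detected. Kdm1a, the lysine demethylase that Rcor2 holds, led at 93.3 ± 2.71, followed by Hmg20b (23.8), Zmym3 (17.9) and Zmym2 (14.2). Rcor3, the remaining paralog of Rcor1 and Rcor2, was at 2.54 and 2.09, and Gse1 was at 1.19 and 0.634 in replicates 1 and 2. Of the partners of Hdac3, Tbl1xr1 had 54.2 and 43.3, Tbl1x 15.0 and 15.3 and Gps2 10.9 and 9.07. In the same list, the MiDAC subunit gene Dnttip1 had 15.9 and 13.7, and Trerf1 was at 0.393 and 0.294.

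Partners of the acetyltransferases included some of the highest levels. All 13 TIP60 partners were detected, led by Morf4l2 at 616 ± 17.2 FPKM, Morf4l1 at 211 ± 1.14, Actl6a at 160.1 ± 1.46 and Ruvbl2 at 99.3 ± 4.30, with Epc2 (18.7) and Epc1 (10.1) lowest. Many of these are shared with other complexes. Of 22 SAGA and ATAC partners 21 were detected, with Taf10 (129 ± 18.8), Taf5l (49.4), Usp22 (34.9) and Supt20 (34.7) highest, Tada2b at 2.12 and Atxn7 at 0.640. All 12 MSL and NSL partners of Kat8 were detected, with Wdr5 (179 ± 2.59), Ogt (82.8), Kansl2 (79.1) and Mcrs1 (69.5) at the top and Msl3 (5.92) and Phf20l1 (3.99) at the bottom. Among the scaffolds of Kat7, Jade1 had 129 ± 0.626 FPKM, Jade3 22.0 and Jade2 2.31, while Brpf3 was at 4.61 and the small subunit gene Meaf6 at 20.3.

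Of 24 other bromodomain genes 22 were detected, with a median of 14.9 FPKM. Atad2 led at 66.8 ± 2.26, followed by Brwd1 (57.4), Zmynd8 (54.8) and the TFIID subunit gene Taf1 (43.4). Smarca2, an ATPase of the BAF remodeller, was at 0.698 and 0.458, and Kmt2a at 0.730 and 0.662. Smarca4, a gene of the same list related to Smarca2, had 15.6 and 16.2. In the list of YEATS domain readers, Yeats4 (61.1) stood above Yeats2 (7.08), Mllt1 (4.10) and Mllt3 (2.87).

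Genes that supply cosubstrates had a median of 38.0 FPKM, with 13 of 14 detected. Acly, which makes acetyl-CoA from citrate outside mitochondria, had 237 ± 2.83 FPKM. The pyruvate dehydrogenase genes Pdha1 and Pdhb had 175 ± 0.616 and 135 ± 3.67, and the citrate carrier gene Slc25a1 88.4 ± 6.84. Naprt (3.54) and Nmnat3 (0.120), both of NAD synthesis, were lowest. Of 11 other acetyltransferase genes all were detected, led by the cohesin acetyltransferase Esco2 (97.3), Naa10 (70.3), Elp3 (68.5) and Naa50 (36.8), with Atat1 (5.84) and Naa60 (5.75) lowest.

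**Figure D5:**
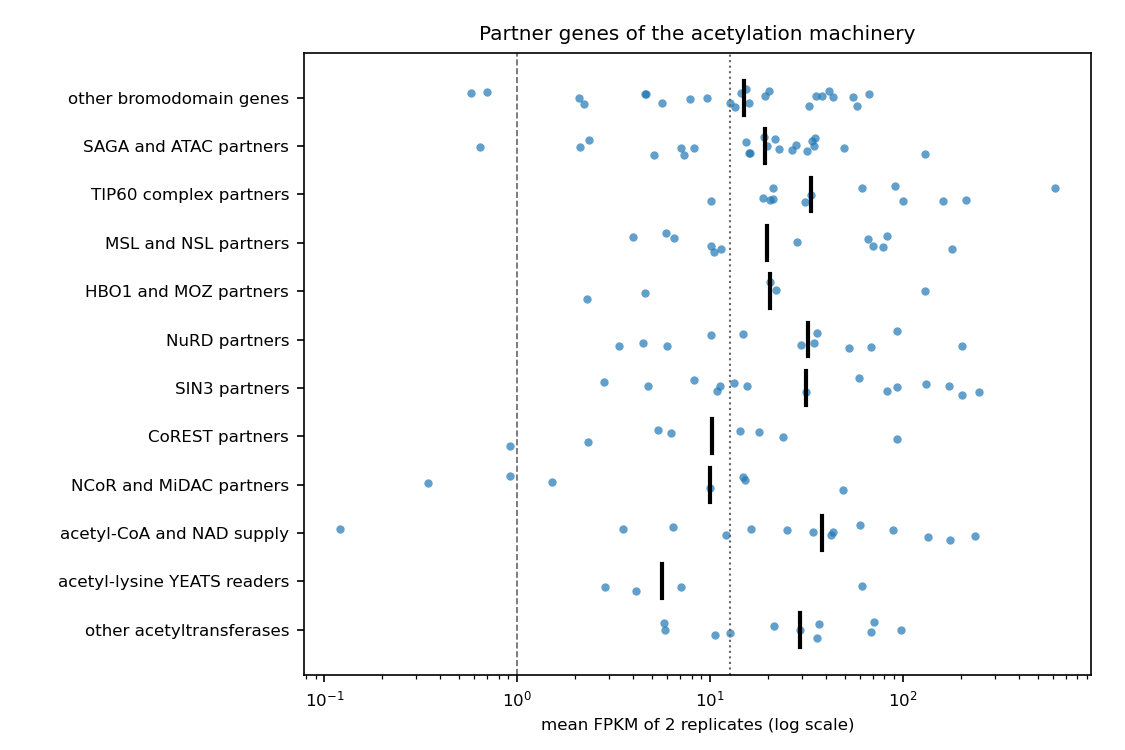
Mean FPKM of the 2 replicates for genes of 12 partner lists, 1 point a gene on a logarithmic axis, with a black bar at each list's median, a dashed line at the detection limit of 1 and a dotted line at the median of detected genes (12.7). Genes in 2 lists are drawn in both, and most points lie right of the dashed line.

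Spans of 30 members overlap another RefSeq gene, and for 9 of these members the table held an FPKM matched by symbol for an overlapping gene. For the other 21 members no level of the overlapping gene was at hand. In 6 of the 9 that gene averaged 1 FPKM or more, namely Brd8 with Kif20a (78.6 FPKM, 240 bases shared), Ncor1 with Ttc19 (9.17, 16217 bases), Sirt3 with Ric8a (27.6, 69 bases), Kat8 with Prss8 (3.14, 122 bases), Hdac7 with Slc48a1 (5.24, 32 bases) and Sin3a with 2700012I20Rik (1.01, 847 bases). The use of strand when reads were assigned is not given in the sources used here, so the division of reads within these pairs is uncertain. Gene span had a rho of -0.25 with level over the 49 genes, a description across genes measured in the same libraries.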

How the data were processed

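RNA was measured in 2 replicate samples of 1 group, E14TG2a ES cells in 2i/LIF. The authors deposited a single table of FPKM, 1 value per gene and replicate. The submitters' processing notes name CASAVA, TopHat2 and Cufflinks and the builds mm10 and GRCm38. Not given in the sources used here are versions, annotation release, use of strand and any scaling of libraries. Cufflinks estimates abundance per transcript, so FPKM depends on the isoforms assumed. Depth in reads is unknown, and no counting interval was computed.

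Column names equal the samples' descriptions, which gave each column its replicate. Symbols were matched by stable Ensembl identifier for 28256 of 28592 genes. Levels, medians, shares of summed FPKM, and differences of log2(FPKM + 1) were computed with Python 3.11.15, pandas 2.3.3, numpy 2.4.6 and scipy 1.17.1. SD are over the 2 replicates. Detection meant an FPKM of 1 or more in each replicate. The 1.5-fold comparison between replicates was checked on simulated data, and the formula for shares on a small set of made-up values. Other steps were not checked in this way. With 1 group, no test was run. Spans and promoter windows come from RefSeq, GRCm38.p6.

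Genes named are all members and, of each partner and marker list, the 4 highest and 2 lowest, and partners that were not detected. Smarca4 is named in addition, beside Smarca2. Not every gene that the rule names is reported here. The members and lists were chosen with earlier results of these data known. Alternatives covered detection limits, pseudocounts of 0.1 and 0.01, TPM rescaling, filters, centring and leaving out each replicate.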

Additional observations from a re-analysis of the deposited data

How the results depend on the processing

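No paired analysis was possible because the series has 1 group. The 47 detected members stayed 47 at limits of 0.1 and 0.5 and in TPM, and were 38 at a limit of 5. Without a replicate the median of the members ranged from 12.6 to 14.3 FPKM. The class I share of zinc-dependent deacetylase RNA was 55.1% on summed log2(FPKM + 1) instead of 84.6% on FPKM. The count of members past 1.5-fold between replicates was 3 without a pseudocount, 0 with a pseudocount of 1 and 1 when members averaging under 1 FPKM were left out. Spearman's rho of level with CpG count was -0.02 over 42 members, -0.11 when those averaging under 1 FPKM were left out, and ranged from -0.026 to -0.0087 without a replicate. All 23 pairs kept their sign under pseudocounts of 0.1 and 0.01 and without each replicate, and 19 stayed the number past 2-fold, or 17 when pairs with a gene averaging under 1 FPKM were left out. Partner genes detected numbered 133, or 140 at a limit of 0.1 and 115 at a limit of 5. Depth in reads is unknown, so values under 1 FPKM are the least certain.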
